A study of Mus musculus with 3 samples.

Results

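The mitochondrial ribosomal protein genes were taken as all named probe sets whose mouse symbol starts with Mrpl or Mrps followed by a number, a rule that uses no measured value. It found 76 of the 19505 named genes, each with 1 probe set, of which 48 are named for the large subunit (Mrpl) and 28 for the small subunit (Mrps). The samples were CD8 T cells of mice, activated by CD3 and CD28 stimulation and kept under Tc1 cytokine conditions, a setting in which they become cytotoxic effectors. They were cultured without added cholesterol (control), with 0.5 µg/ml cholesterol or with 0.75 µg/ml cholesterol, and total RNA of each culture was hybridised to 1 whole-transcript array. The labels give no strain, age, exposure time or carrier, so effects of a carrier and of cholesterol cannot be told apart, and the number of animals behind the cultures is not stated. With 1 array per condition there was no replicate check and no test, and the precision of each value is limited by the small number of arrays.

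Mitochondria carry their own ribosomes, which translate the few respiratory chain proteins encoded in mitochondrial DNA. The ribosomal RNAs of these particles come from the mitochondrial genome, but all of their proteins are encoded in the nucleus, made in the cytosol and imported. The large subunit joins amino acids and holds the exit tunnel for the new chain, and the small subunit holds the messenger RNA and decodes it. Activated T cells enlarge their mitochondria, and mitochondrial translation is needed for their growth and effector function.

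Median intensities over all probe sets, controls included, were close, at 32.5, 32.4 and 33.0 for the control, 0.5 and 0.75 µg/ml. These medians lie under the background level given below and do not show how the arrays match at brighter signals. Intensities are on a linear scale, and differences are of log2 values between 2 arrays. The background level used below, 102, is the highest 95th percentile of the 5222 negative-control probe sets on any array. The 5 markers listed for CD8 T cells were Cd8a and Cd8b1 and the general T cell genes Cd3d, Cd3e and Cd3g. All 5 were above the background level on every array, with Cd8a at 4225, 4164 and 3313. Cd8a, Cd8b1 and Cd3d were lower at 0.75 µg/ml than in the control, with log2 differences of -0.35, -0.34 and -0.34, while Cd3g differed by -0.09 and Cd3e by 0.07. Of the 5 myeloid and 4 NK cell markers measured, none reached the background level on all arrays. The 4 B cell markers summed to 165, 153 and 153. Most of this came from Cd79b, at 111, 100 and 105, which was under the background level only at 0.5 µg/ml. The others were under it on every array. The 3 CD4 T cell markers summed to 249.6, 285 and 255. Of these, Cd4 itself was at 61.6, 39.4 and 35.7 and Cd40lg at 9.92, 11.3 and 9.60, both under the background level. Zbtb7b was above that level on every array and higher at both doses than in the control, at 178, 235 and 209. The 3 erythroid and platelet markers summed to 172, 169.5 and 150.3. The part of these marker differences in the results below was not tested, and in RNA of bulk cells fewer cells of a type and less RNA per cell cannot be told apart. The cholesterol synthesis gene Hmgcs1 was at 1848, 1295 and 285.

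Promoters of some members are shown first, because the genes are scattered over the genome. The 76 members, all matched by gene identifier to the RefSeq table of GRCm38.p6, lie on 17 chromosomes, with 11 on chromosome 11 and 8 on chromosome 17. RefSeq promoter windows of 250 bases before to 50 after a start were at hand for 67 of them. In these windows 4 motifs of factors known for mitochondrial or growth genes were searched on both strands, and no match of 1 motif overlapped a match of another. The ETS motif CCGGAAG, the core bound by GABP, was in the windows of 25 members, or 37.3%, against 9.93% of all 27025 genes with a window. The NRF1 motif, GCGCA followed by any base and GCGC, was present for 13 members, or 19.4%, against 5.19% of all genes. The YY1 motif AAGATGGCG was present for 8 members (11.9%, against 1.64%) and the E-box CACGTG, a motif of MYC and related factors, for 5 members (7.46%, against 8.09%). A match describes letters in a window and is not shown to be a bound site. A gene can have several windows, and a match in any of them counted.

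The 4 stretches below, each the 120 bases before the start, show 1 match each in capitals. They belong to members from both ends of the range described later, chosen after their values were seen. Mrpl12 (chr11:120484517-120484636, plus strand) and Mrps21 (chr3:95871515-95871634, minus strand) hold the NRF1 motif, which there reads on the opposite strand. Mrps22 (chr9:98601680-98601799, minus strand) holds the ETS motif and Mrpl20 (chr4:155802758-155802877, plus strand) the E-box.
Mrpl12: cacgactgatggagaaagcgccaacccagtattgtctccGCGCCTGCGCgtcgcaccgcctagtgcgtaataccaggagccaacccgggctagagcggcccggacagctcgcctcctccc
Mrps21: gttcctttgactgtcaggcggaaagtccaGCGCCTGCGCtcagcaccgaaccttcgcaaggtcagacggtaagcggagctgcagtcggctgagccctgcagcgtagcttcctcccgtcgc
Mrps22: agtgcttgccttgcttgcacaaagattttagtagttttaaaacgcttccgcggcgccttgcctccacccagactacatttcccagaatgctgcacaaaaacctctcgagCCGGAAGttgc
Mrpl20: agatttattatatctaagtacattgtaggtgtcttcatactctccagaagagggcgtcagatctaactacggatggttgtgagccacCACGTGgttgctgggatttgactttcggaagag
The same NRF1 letters thus stood at positions -81 to -72 from the start of Mrpl12, which was above the control at 0.75 µg/ml, and at -91 to -82 from that of Mrps21, which was below it. At 0.75 µg/ml the members' median differences from the control were 0.04 with and 0.09 without the NRF1 motif, and 0.09 with and 0.07 without the ETS motif. For YY1 they were 0.16 with and 0.07 without, over 8 members with the motif. For the E-box they were 0.03 with and 0.08 without, over 5 members with the motif. The E-box value of 0.03 is that of Mrpl36, under the background level on both arrays, at 91.5 against 89.3.

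All 76 members passed a filter at the median level of the transcript probe sets, an intensity of 43.3, which 10003 of the 19505 genes passed. Member intensities ran from 61.6 to 1313 in the control with a median of 305, from 81.1 to 1237 at 0.5 µg/ml with a median of 332, and from 77.8 to 1376 at 0.75 µg/ml with a median of 321. The medians over all named genes were 47.4, 47.6 and 47.7. On every array 71 members were above the background level. The exceptions were Mrps24 and Mrpl47, under it on all 3 arrays, and Mrpl22, Mrpl36 and Mrps18c, under it on some. Intensities of different probe sets are not compared with each other as transcript amounts. Among the probe sets with the brightest signals were Mrpl33 at 1313, 1237 and 1376 and Mrpl42 at 1014, 1071 and 1206. Others were Mrpl45 at 878, 922 and 849.5, Mrps14 at 831, 827 and 898, and Mrpl58 at 799.97, 768 and 748. RefSeq lists 2 further coding genes that fit the naming rule, Mrpl53 and Mrps6, which had no named probe set and were not analysed here.

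The first comparison asked how 0.5 µg/ml cholesterol altered these transcripts. The members lay close to the control, their median log2 difference being 0.02 (quartiles -0.07 and 0.08) beside 0.00 over all named genes. Of the 76, 41 were above the control, 29 below and 6 exactly equal, while 50.6% of all named genes were above and 46% below. Among the 7656 genes with a mean at or above the background level, 53.6% were above and 44.4% below. A log2 difference of 0.32 or more is counted below as past the smaller limit and 2-fold as the larger one. Past the smaller limit upward were 3 members, beside 9.1% of all named genes and 3% of the genes at or above the background level. None was past it downward, beside 9.04% and 3.28%. No member differed 2-fold, beside 0.277% and 0.0392%.

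The 3 members past the smaller limit at 0.5 µg/ml all had dim probe sets. Mrpl36, counterpart of a small zinc-binding protein of the bacterial large subunit, was at 124 at 0.5 µg/ml against 89.3 in the control, which is at least 1.21-fold higher when the control value is set to the background level. Mrps24, counterpart of bacterial ribosomal protein S3, was at 81.1 against 61.6, and Mrpl47, counterpart of bacterial L29 near the exit tunnel, at 93.9 against 74.5, all under that level. Next in order were Mrpl39 at 320.4 against 267, Mrpl28 at 177 against 152 and Mrpl4, a tunnel-lining protein in bacteria, at 427 against 368. Their log2 differences were 0.26, 0.22 and 0.22.

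The lowest members at 0.5 µg/ml were Mrpl55, at 226 against 275 (-0.29), and Mrps21, at 516 against 622 (-0.27). Mrps31 followed at 206 against 236 (-0.19). Mrpl44, whose product is needed for assembly of the large subunit and has an RNase III-like fold, was at 168 against 188 (-0.16). Mrpl23, another protein at the exit tunnel, was at 511 against 565 and Mrps33 at 499 against 552.

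The second comparison set 0.75 µg/ml cholesterol against the control. Here the members lay slightly above the control as a group, with a median difference of 0.09 (quartiles -0.01 and 0.21), beside 0.01 over all named genes and 0.00 over genes with a mean at or above the background level. Above the control were 52 members, 22 were below and 2 were equal, beside 50.8% of all named genes above and 46.1% below, and 50.5% and 47.8% of the genes at or above the background level. After quantile normalization of the arrays 60 members were above and 16 below, beside 51.5% and 48.3% of all named genes, and after centring each array on its median 50 were above and 26 below, beside 49.4% and 50.6%. Past the limit of 0.32 upward were 8 members, or 10.5%, which is near the 12.8% of all named genes and the 8.61% of genes with a mean at or above the background level. Past it downward were 0 of the 76, against 12.4% of all named genes and 11.8% of those at or above the background level. No member differed 2-fold, beside 1.49% of all named genes and 1.59% of those at or above the background level. The lowest member was at -0.30 and the highest at 0.47, and the SD over members was 0.17, against 0.33 over genes with a mean at or above the background level.

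**Figure D1:**
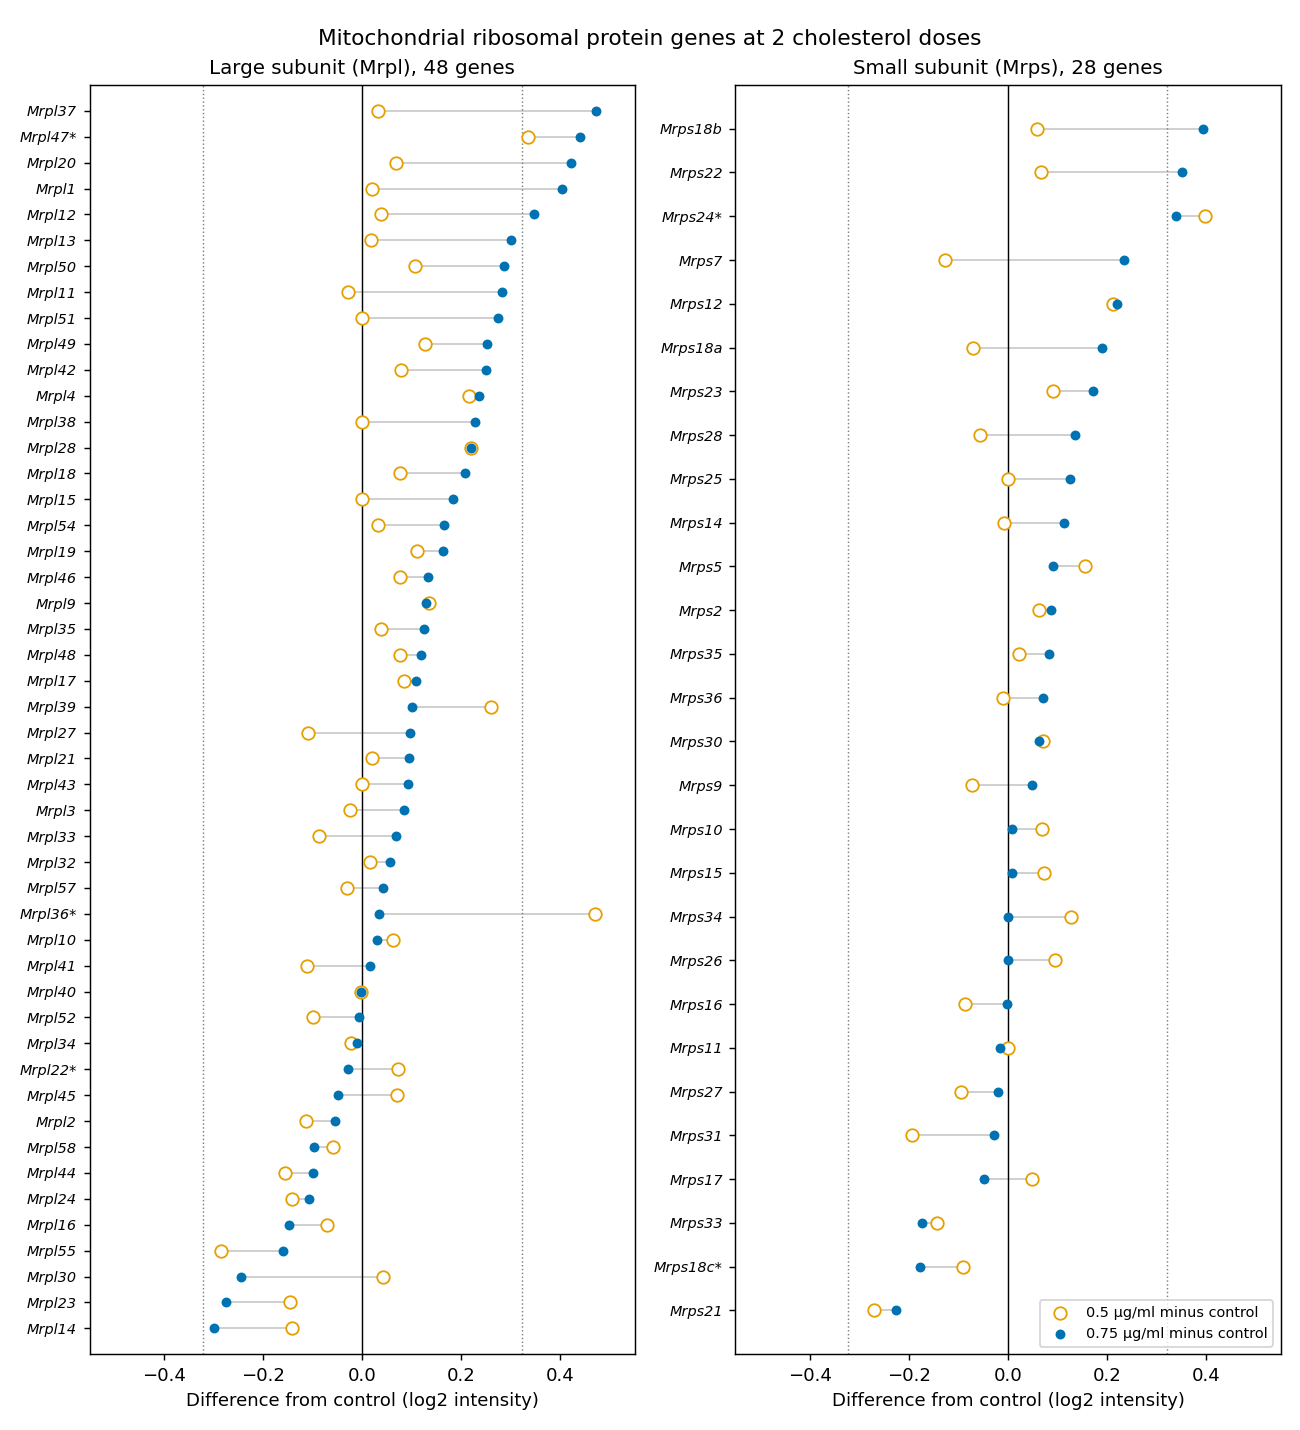
Difference from the control in log2 intensity (x axis) of all 48 large subunit and 28 small subunit genes, ordered by the 0.75 µg/ml value, for 0.5 µg/ml (open) and 0.75 µg/ml (filled), 1 array each. Dotted lines mark differences of 0.32 up or down and an asterisk a gene under the background level of 102 on at least 1 array. At 0.75 µg/ml 8 genes lie past the upper dotted line and 0 past the lower.

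Mrpl37 had the highest difference at 0.75 µg/ml. Its intensities were 213, 218 and 296 across the control, 0.5 and 0.75 µg/ml, a log2 difference of 0.47 (1.39-fold) at the higher dose and 0.03 at the lower. Its product is a protein that the mitochondrial ribosome has and the bacterial one lacks. Mrpl20, counterpart of an early RNA-binding assembly protein of the bacterial large subunit, was at 343, 360.03 and 459.9 (0.42). Mrpl1, the protein of the mobile stalk beside the tRNA exit site, was at 151, 153 and 199 (0.40). In these 3 genes the control and the lower dose were nearly level and the higher dose stood apart.

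Mrps18b was at 514, 536 and 675 (0.39) and Mrps22, mutated in human mitochondrial disease with cardiomyopathy, at 124, 130.2 and 159 (0.35). Mrpl12, which forms the stalk that recruits translation factors and also binds the mitochondrial RNA polymerase, was at 427, 438 and 543 (0.35). The other genes past the limit were the dim Mrpl47, at 101 against 74.5, and Mrps24, at 77.8 against 61.6. These 2 were the only members past the limit at both doses, and neither reached the background level on any array, so no fold is given. The values at both doses share the control array.

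At the other end, Mrpl14, counterpart of a protein at the interface of the bacterial subunits, was at 128, 116 and 104 (-0.30). Mrpl23 was at 565, 511 and 467 (-0.28), and both were stepwise lower with dose. Mrpl30 was at 382, 394 and 323 (-0.24), with the lower dose not below the control. Mrps21 was at 622, 516 and 532 (-0.23), lower at both doses. Mrps33 was at 552, 499 and 489 (-0.17). The value of Mrps18c was close to the background level on every array, at 102, 95.7 and 90.1. None of these differences reached -0.32.

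**Figure D2:**
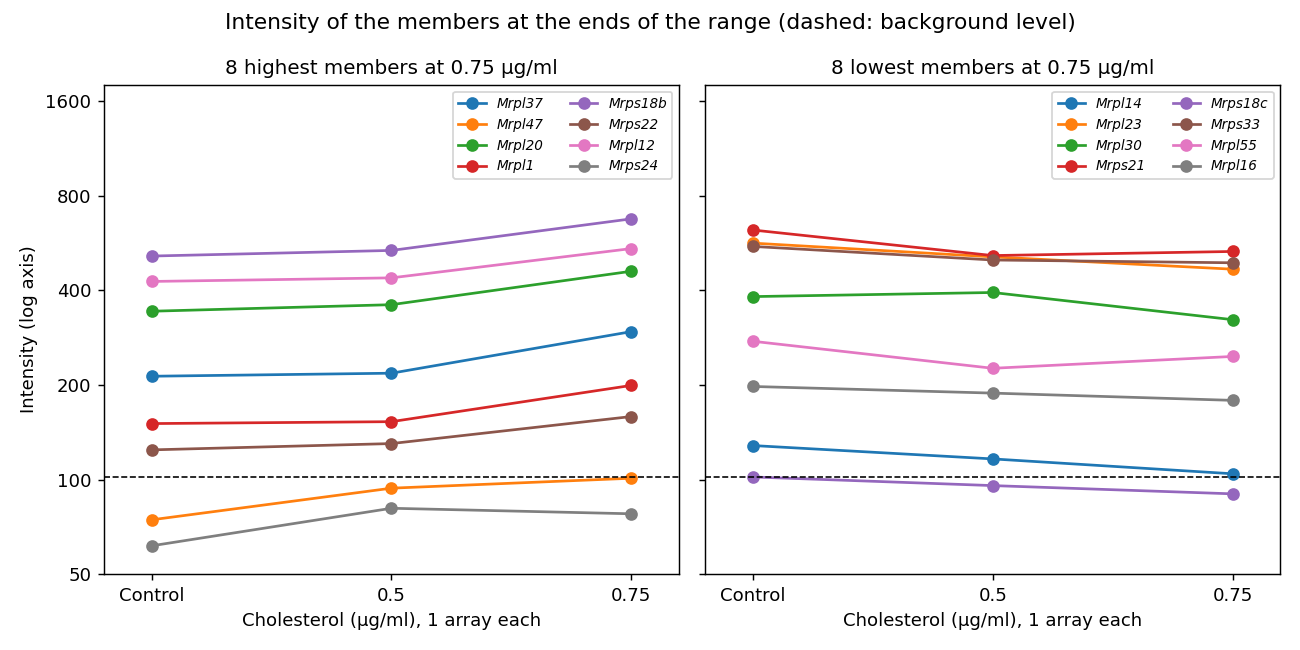
Intensity on a log axis of the 8 highest (left) and 8 lowest (right) members by the 0.75 µg/ml difference, on the control, 0.5 and 0.75 µg/ml arrays, with lines joining the 3 values of a gene. The dashed line is the background level of 102. In the left panel Mrpl37, Mrpl20, Mrpl1, Mrps18b, Mrps22 and Mrpl12 are level or nearly level between the control and 0.5 µg/ml and higher at 0.75 µg/ml, and Mrpl47 and Mrps24 lie under the dashed line throughout.

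The members were also read by their place in the particle. Of the 3 stalk proteins, Mrpl12 differed from the control at 0.75 µg/ml by 0.35 and Mrpl11 by 0.28, at 315 against 259. Mrpl10, which anchors the Mrpl12 copies, differed by only 0.03, at 435 against 426. At 0.5 µg/ml Mrpl12, Mrpl11 and Mrpl10 differed by 0.04, -0.03 and 0.06. Around the exit tunnel, Mrpl23 differed by -0.28 and Mrpl24 by -0.11. Mrpl45, which ties the tunnel exit to the inner membrane, was at 849.5 against 878 (-0.05). Mrpl22 and Mrpl47, also proteins of the tunnel, were both under the background level there and in the control. The 3 relatives of bacterial protein S18, which sit at separate places in the particle, were at 675 against 514 (Mrps18b, 0.39), at 315 against 276 (Mrps18a, 0.19) and, under the background level at the higher dose, at 90.1 against 102 (Mrps18c).

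Further members with known roles follow. Mrpl3, a protein near the site of peptide bond formation, was at 180.3 against 169.95 (0.09), and Mrps27, a pentatricopeptide repeat protein, at 218 against 221. Mrpl58, a release factor-like protein that frees stalled chains, was at 748 against 799.97 (-0.10). Mrps12, a protein of the decoding centre, was at 347 against 298 (0.22) and was as high at 0.5 µg/ml, at 345. Mrps36 is now known as a subunit of the 2-oxoglutarate dehydrogenase complex and not of the ribosome, and was at 229.9 against 219 (0.07).

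The large and small subunit genes had similar medians. For the large subunit the value at 0.75 µg/ml was 0.10, with 34 of 48 above the control. For the small subunit it was 0.07, with 18 of 28 above, beside 50.8% of all named genes. For the lower dose the medians were 0.02 and 0.01. Grouping is by symbol, although the products of Mrps18a and Mrps30 are found in the large subunit. Among the 44 members with a bacterial counterpart the median at the higher dose was 0.09, and among the 30 specific to mitochondria it was 0.10, while 2 members were left unclassified. The members that the naming rule did not pick lay between -0.15 (Mrpl16, at 179 against 198) and 0.30 (Mrpl13, at 449.5 against 365) at the higher dose. At the lower dose they lay between -0.14 (Mrpl24, at 669 against 737) and 0.15 (Mrps5, at 403 against 362).

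The third comparison set the higher dose against the lower and does not use the control array. It shares the 0.75 µg/ml array with the second comparison and the 0.5 µg/ml array with the first. It is therefore not an independent repeat of either. Of the 76 members, 52 were higher at 0.75 than at 0.5 µg/ml and 22 lower, with 2 equal, beside 48.6% of all named genes higher and 47.6% lower, and 46.3% and 51.7% of those at or above the background level. The median difference was 0.07 (quartiles -0.02 and 0.14), beside 0.00 over all named genes and -0.01 over genes with a mean at or above the background level. Past 0.32 upward were 5 members, beside 10.5% of all named genes and 5.86% of those at or above the background level. These 5 were Mrpl37 (0.44), Mrpl1 (0.38), Mrps7 (0.36), Mrpl20 (0.35) and Mrps18b (0.33). Mrps7, counterpart of a bacterial protein that starts assembly of the small subunit's head, was at 492 at 0.75 against 382 at 0.5 µg/ml, and at 418 in the control. Mrpl11 came next, at 315 against 254 (0.31).

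Past 0.32 downward between the doses was 1 member, Mrpl36, at 91.5 against 124, beside 10.9% of all named genes and 9.98% of those at or above the background level. Its lower value is under the background level, and set to that level it leaves a difference of at least 1.21-fold. No member differed 2-fold between the doses, beside 1.13% and 1.35%. Mrpl30, at 323 against 394 (-0.29), and Mrpl39, at 287 against 320.4 (-0.16), were the next lowest, followed by Mrpl14 (-0.16), Mrpl23 (-0.13) and Mrps34, at 308 against 337 (-0.13). In the order control, 0.5 and 0.75 µg/ml, 25 members (32.9%) stepped upward at both steps and 6 (7.89%) downward. Over all named genes 19.4% stepped upward and 16.7% downward, and over genes at or above the background level 22.6% and 20.9%.

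The cytosolic ribosomal protein genes lay mostly below the control at the higher dose. Over their 54 measured members the median difference was -0.18 at 0.75 µg/ml, with 52 below the control and 2 above. The mitochondrial set had 22 below and 52 above, beside 46.1% of all named genes below and 50.8% above. The cytosolic probe sets had brighter signals, from 570 (Rpl27) to 7754 (Rplp1) in the control, where the mitochondrial median was 305. Rps15a was at 1860 at 0.75 µg/ml against 2461 in the control (-0.40) and Rpl38 at 2060.4 against 2635 (-0.35). The highest were Rpl41 (0.06) and Rps23 (0.02). At 0.5 µg/ml the cytosolic median was -0.01, with 22 above and 32 below, beside 50.6% and 46% of all named genes. Between the doses the cytosolic median was -0.14.

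**Figure D3:**
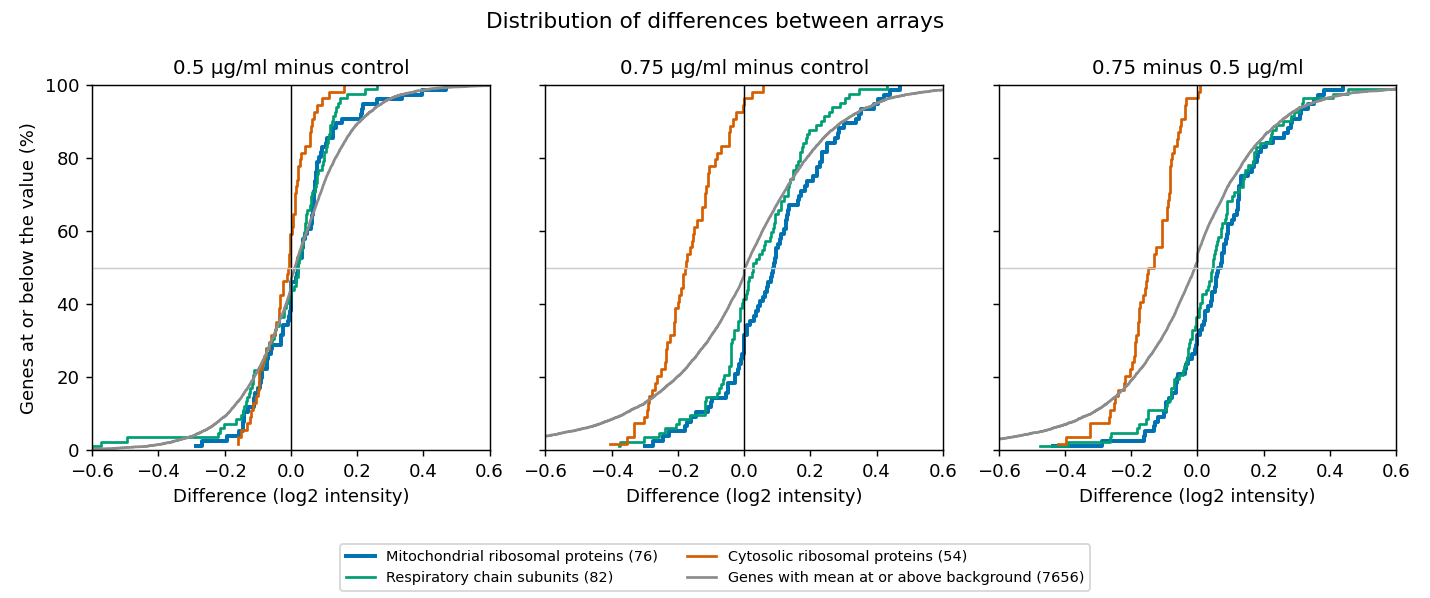
Cumulative share of genes (y axis, %) at or below each log2 difference (x axis) for 0.5 µg/ml minus control, 0.75 µg/ml minus control and 0.75 minus 0.5 µg/ml. Curves are the 76 mitochondrial ribosomal protein genes, 82 respiratory chain genes, 54 cytosolic ribosomal protein genes and the 7656 genes with a mean at or above the background level. At 0.75 µg/ml the mitochondrial curve crosses 50% at 0.09 and the cytosolic curve at -0.18.

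Other parts of the mitochondrial translation system had members on both sides of the control. Ribosomal proteins under other symbols had 4 of 5 genes measured, with Ptcd3 at 419.6 against 342 (0.30), Chchd1 at 170.4 against 153 (0.16), Dap3 at 529 against 491 (0.11) and Gadd45gip1 at 181 against 214 (-0.24). The 24 genes of ribosome assembly and ribosomal RNA modification showed a median of 0.03 at the higher dose. Of the 24, 13 were above the control, beside 50.8% of all named genes. The 24 reached from Fastkd2 (0.41) and the RNA methyltransferase gene Mrm3 (0.37) to Mrm1 (-0.24) and Mettl15 (-0.26).

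The 15 measured translation factors also had a median of 0.03, with 8 above the control, beside 50.8% of all named genes. Of the 15, 1 was past 0.32 upward and 1 past it downward, beside 12.8% and 12.4% of all named genes. The elongation factor gene Gfm1 was at 817 against 635 (0.37) and the initiation factor gene Mtif2 at 116 against 98.0, the control being under the background level. Another initiation factor gene, Mtif3, was at 80.9 against 102, under that level on both arrays, and Mtfmt, which formylates the initiator tRNA, at 290.2 against 345. The 16 mitochondrial aminoacyl-tRNA synthetase genes, which charge the tRNAs, had a median of -0.01, with 8 above, 2 past 0.32 upward and 3 past it downward. Mars2 was at 187 against 142 (0.40) and Nars2 at 82.9 against 66.1, under the background level. Fars2 was at 134 against 179 (-0.43) and Vars2 at 117 against 163 (-0.48).

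The 9 genes of mitochondrial DNA transcription and replication had a median of 0.00. That is the value of Twnk, at 34.8 on both arrays and under the background level. Of the 9 genes, 4 had a mean at or above that level. Top1mt, a topoisomerase gene, was at 122 against 86.0, the control being under the background level. Tefm, an elongation factor of the mitochondrial RNA polymerase, was under that level on every array, at 33.4 against 38.3. Polg was under it too, at 86.4 against 78.3, and Polg2 was at 116 against 122 (-0.06). The 82 respiratory chain genes, many but not all of which have partners made on the mitochondrial ribosome, had a median of 0.03. Of them 48 were above the control and 34 below, beside 50.8% and 46.1% of all named genes. A mean at or above the background level was reached by 76 of the 82. Among the 82, Ndufa4 (0.43) and Ndufb2 (0.35) were highest and Ndufv3 (-0.37) and Ndufs5 (-0.38) lowest.

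**Figure D4:**
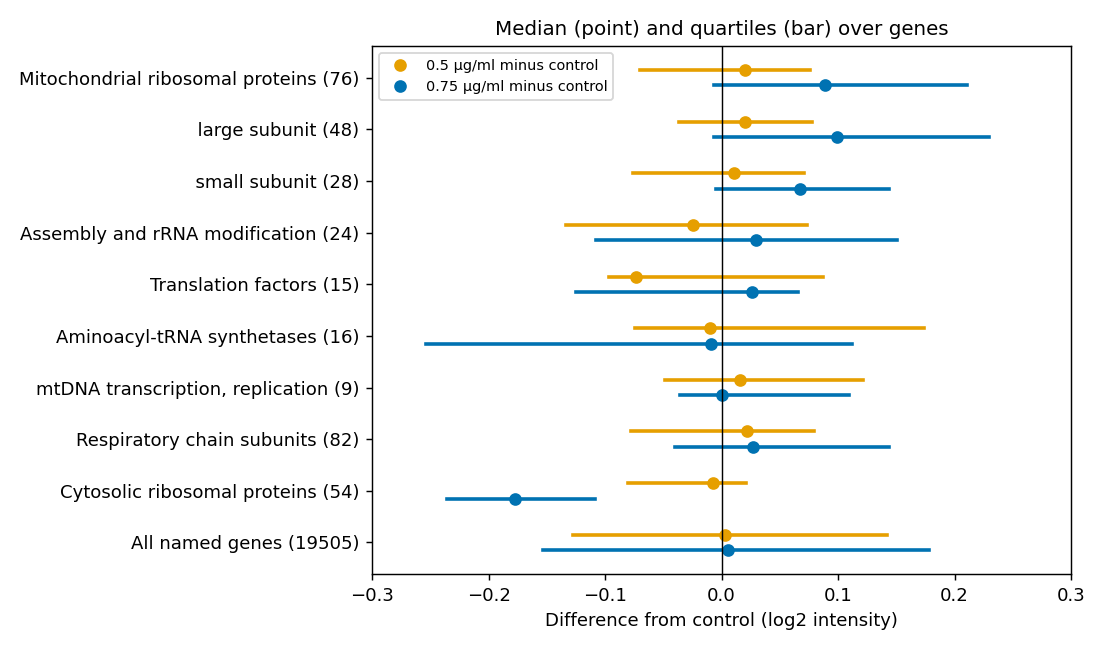
Median (point) and quartiles (bar) over genes of the log2 difference from the control at 0.5 and 0.75 µg/ml, for the ribosomal proteins, the other lists of the mitochondrial translation system, respiratory chain and cytosolic ribosomal protein genes, and all named genes, with the number of genes in brackets. At 0.75 µg/ml the mitochondrial ribosomal proteins lie at 0.09 and the cytosolic ones at -0.18.

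Many members are transcribed head to head with another gene. A RefSeq start on the opposite strand lay within 1000 bases upstream for 26 members, and the neighbour was measured for 23 of them. Of these 23 pairs 11 had member and neighbour on the same side of the control at 0.75 µg/ml. The rest were not all on opposite sides, since the neighbours Twnk, Ptcd2 and Zfp661 were exactly equal to the control. Klc4, Twnk, Zfp189, Zfp661 and Cyb5rl were under the background level on every array. The share of such pairs over all genes was not computed. The neighbours had a median difference of 0.01, with 13 above the control, beside 50.8% of all named genes. Mrpl46 and Mrps11 are each other's neighbour and enter from both sides. The 4 pairs described here were chosen after their values were seen.

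The bases between the starts of each pair follow, written on the member's strand 5′ to 3′ and all in lower case, since none of the 4 motifs lies within them. The stretch for Mrpl49 and Fau is at chr19:6057756-6057946, minus strand, that for Mrpl37 and Cyb5rl at chr4:107066867-107066993, minus strand, that for Mrpl30 and Mitd1 at chr1:37890412-37890476, plus strand, and that for Mrpl46 and Mrps11 at chr7:78783090-78783130, minus strand, all in GRCm38.p6.
Mrpl49: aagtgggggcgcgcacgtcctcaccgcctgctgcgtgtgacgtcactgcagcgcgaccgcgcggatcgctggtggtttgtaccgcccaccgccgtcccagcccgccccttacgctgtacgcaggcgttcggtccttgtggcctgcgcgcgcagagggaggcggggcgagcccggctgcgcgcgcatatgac
Mrpl37: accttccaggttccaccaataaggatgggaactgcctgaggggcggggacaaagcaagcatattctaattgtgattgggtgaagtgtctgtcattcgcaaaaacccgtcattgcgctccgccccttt
Mrpl30: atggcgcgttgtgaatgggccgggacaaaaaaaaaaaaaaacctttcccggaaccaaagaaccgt
Mrpl46: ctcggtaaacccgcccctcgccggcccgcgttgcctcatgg
Mrpl49 shares 191 bases with Fau, which encodes a protein of the cytosolic small ribosomal subunit. Mrpl49 was at 352 at 0.75 µg/ml against 296 in the control (0.25) and Fau at 1938 against 2387 (-0.30), so the genes of this pair lay on opposite sides. Mrpl37 (0.47) is separated by 127 bases from Cyb5rl, at 79.6 against 59.98 and under the background level. Mrpl30 (-0.24) is 65 bases from Mitd1, whose product acts in cell division, at 196 against 259 (-0.40). Mrpl46 (0.13) and Mrps11 (-0.02), 41 bases apart, were at 132 against 120.04 and at 593 against 599.7.

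**Figure D5:**
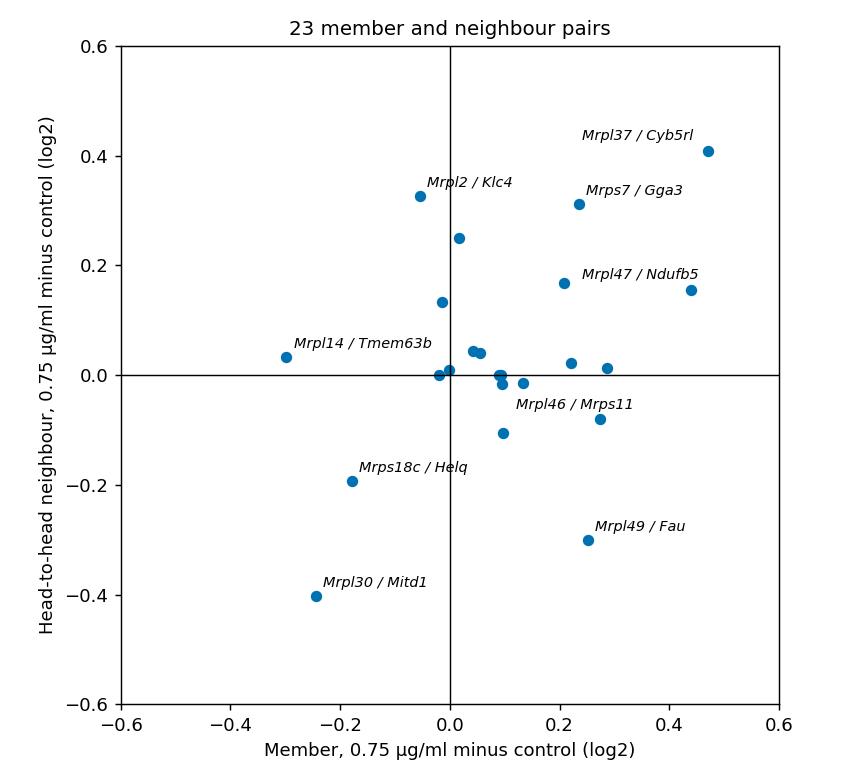
Log2 difference at 0.75 µg/ml from the control of each member (x axis) and of its head-to-head neighbour (y axis) for the 23 pairs with a measured neighbour, with 9 pairs labelled. Points lie in all quadrants, with Mrpl37 and Cyb5rl high together, Mrpl30 and Mitd1 low together, and Mrpl49 at 0.25 where Fau is at -0.30.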

How the data were processed

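Each deposited value is the intensity of a probe set on 1 array, linear as judged from its range. How the authors corrected background and normalized is not given in the sources used here. Per the labels, Trizol was used to extract total RNA, which then carried a biotin label. Genes were named through the platform annotation, and for the 55 genes with several probe sets the brightest by mean was kept. Log2 was taken with no further normalization and no filter. Each comparison is a difference between 2 arrays, with no test, and members are counted past 2 limits, 0.32 on the log2 scale and 2-fold, beside all named genes. The members, gene lists and named genes were chosen with earlier results of these data known. Named were the 6 highest and 6 lowest members per comparison, the 5 brightest and 5 dimmest, those past the smaller limit on 1 side at both doses, those under background on every array, a fixed set with known roles, and the 2 highest and 2 lowest genes of each list at 0.75 µg/ml. Other members are named for their place in the particle or genome, as ends of the range of the members not picked, or for identical values. All 8 measured regulators of mitochondrial biogenesis are named, beyond this rule. Classes (bacterial counterpart or not), sites and promoter motifs were set after values were seen. Only the per-gene differences, the smaller limit and quantile normalization were tested on simulated data. The simulated noise was smaller than the spread over members seen here. The calculations used Python 3.11.15, numpy 2.4.6 and pandas 2.3.3, with plots from matplotlib 3.10.9.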

Additional observations from a re-analysis of the deposited data

Results flagged for a closer look

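Mrps7 lay on opposite sides of the control at the 2 doses, each by at least 0.1 on the log2 scale. Its intensities for the control, the lower and the higher dose were 418, 382 and 492, or differences of -0.13 and 0.23. The difference between the doses, 0.36, was not tested, and both doses share the control array.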

How the results depend on the processing

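Alternatives raised values under 102 to that level, centred or quantile-normalized the arrays, averaged probe sets, filtered at the median level, added 16 before log2 or left out Mrps36. Leaving out the 5 members with a mean under the background level was chosen after seeing the data, as was setting counts beside genes at or above that level. Averaging and the filter could not change the members, which have 1 probe set each and all pass. Of 108 values for their medians and counts under the other settings, 104 were kept within the limits set for them (0.05 for a median, 1.5 times for a count). The median at 0.75 µg/ml ran from 0.08 to 0.11. The number past 0.32 upward at 0.5 µg/ml was 0 both with dim values raised and without the dim members, against 3 as reported, and the number past it downward between the doses was 0 in both, against 1, since all 3 genes concerned have dim probe sets. The CD4 T cell marker median at 0.5 µg/ml was -0.12 with the level filter, against 0.19, over fewer genes. No paired analysis was possible because each condition has 1 array, and none could be left out. Dim probe sets and the single arrays limit what can be read from differences of this size.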

Other observations

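Genes for regulators of mitochondrial biogenesis were measured for 8 of 9. At 0.75 µg/ml their median difference from the control was 0.08, with 5 above, beside 50.8% of all named genes. With values under the background level raised to it the median was 0.02, and with the filter at the median level 0.04. Nrf1 was at 629 against 546 (0.20), Pprc1, a coactivator related to PGC-1alpha, at 115 against 90.4 with the control under the background level, and Gabpa at 783 against 721 (0.12). Gabpb1, whose product pairs with that of Gabpa, was at 491 against 602 (-0.29), with the same value at 0.5 µg/ml, and Myc at 5306 against 5925 (-0.16). Ppargc1a was far under the background level, at 12.6 against 9.37. Ppargc1b was at 255 against 248 (0.04) and Yy1 at 566 against 587 (-0.05).

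Of the members, 10 had exactly the same deposited value on 2 arrays, or 13.2%, beside 9.22% of all named genes and 5.33% of genes with a mean at or above the background level. Mrpl51, for example, was at 643.4 on both the control and the 0.5 µg/ml array, and Mrps26 at 430.005 on both the 0.75 µg/ml and the control array.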
